A study of Mus musculus with 4 samples.

Results

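Loss of Zfp871 and loss of Trp53 were compared singly and together in primary mouse embryonic fibroblasts (MEFs), and each gene was asked whether its level without both genes was the sum of its differences without either. For each gene the interaction was the log2 of the level in double-null cells times the level in wild-type (WT) cells, divided by the product of the levels in both single nulls. It equals the log2 distance of the double null from an additive prediction, in which the difference of Zfp871-/- from WT and the difference of Trp53-/- from WT are added. A value of 0 means that the double null lay on the prediction, a positive value that it lay above and a negative value that it lay below. Levels were read counts scaled to normalized library size (CPM), with a prior count of 2 added before the log. Of 54532 gene IDs counted, 13306 reached a CPM of 1 in 2 or more of the 4 libraries and form the set described here. Genes just inside and just outside that limit had second-highest CPM values of 1.0013 and 0.999806.

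The cells were C57BL/6 MEFs from embryos of 12.5 to 13.5 days, taken at passage 4 while dividing, and 1 RNA sequencing library represented each genotype. The genotypes were WT, Zfp871-/-, Trp53-/- and cells null for both genes (double null), and values below follow that order. Per the series description, Zfp871-/- cells came from matings of Zfp871 heterozygotes, whereas Trp53-/- and double-null cells came from matings of mice heterozygous for both genes. Each mating also gave WT cells, but the labels do not say which of them gave the sequenced WT library, whether embryos were pooled or how the alleles were made. Mating and genotype therefore cannot be told apart in the interaction or in any comparison with WT or Zfp871-/-. With no repeated library the interaction has no replicate check and was not tested. The 95% intervals printed with it cover counting error only. They may be too narrow even for that, since the reads carry no molecular identifiers and need not be independent.

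The p53 protein, encoded by Trp53, is a transcription factor that halts the cell cycle or triggers cell death after damage. It is held low by the ubiquitin ligase Mdm2, which p53 itself induces. The product of Zfp871 is a zinc finger protein whose loss the series title links in part to this axis. As background, losses that act on a transcript through separate routes are often taken to add on a log scale, while losses that share a route may not. A departure from the sum does not by itself show a shared route, and routes were not tested. MEFs are a mixed connective-tissue population whose genes of body position, such as the Hox genes, keep a record of where in the embryo the cells came from.

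Library totals ranged from 19303167 to 22324599 counts. Zfp871 (chromosome 17, 32765496 to 32788287, GRCm38/mm10) stood at 34.96, 17.35, 35.87 and 13.21 CPM, so its RNA was lower in both libraries labelled null for it but not absent. Trp53 (chromosome 11, 69580359 to 69591873) stood at 126.2, 128.0, 56.4 and 59.5 CPM and was likewise lower in both libraries labelled null. A count over the whole gene does not tell a deleted exon from a retained one. The 32 fibroblast matrix genes summed to between 64600 and 95700 CPM in every library. Xist was counted in all 4 libraries, and 6 genes of the Y chromosome had at most 1 count in any of them. The 24 macrophage genes summed to 91.7 and 107 CPM in WT and Zfp871-/- but to 1340 and 1190 CPM in Trp53-/- and the double null. In such bulk samples, fewer cells of a type and less RNA per cell cannot be told apart.

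Most transcripts lay within 2-fold of additivity, and in most of those that departed the double null lay closer to WT than the sum predicts. The median interaction over all genes was 0.0013, the quartiles were -0.25 and 0.26, and 1298 genes (9.75%) departed by at least 2-fold. The double null lay above the prediction for 628 of them (4.72%) and below it for 670 (5.04%). These shares are the background for the counts of each gene list below. A departure of at least 4-fold was met by 282 genes (2.12%), 163 above (1.23%) and 119 below (0.894%). The counting interval left out 0 for 1129 of the 1298 genes (8.48% of all genes). Over all genes it left out 0 for 6102 (45.9%), so this was not particular to the departing genes.

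Relative to WT, the double null lay on the predicted side but closer than predicted in 1075 of the 1298 departing genes (82.8%). It lay farther from WT than predicted in 51 (3.93%) and on the other side of WT in 172 (13.3%). The prediction and the observed difference both start from the WT library, so these shares describe the 4 libraries and are not separate evidence. Over all genes, Zfp871-/- was at least 2-fold higher than WT in 3.52% and lower in 3.98%, and Trp53-/- was higher in 8.9% and lower in 8.88%. Of 356 genes at least 2-fold lower in both single nulls than in WT, 307 departed, with a median predicted difference of -4.31 and a median observed difference of -2.34. Of 310 genes at least 2-fold higher in both, 282 departed, with medians of 3.68 predicted and 1.78 observed. In the first class 280 of the 307 had a double-null level within 2-fold of Trp53-/-, and in the second 255 of the 282.

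A further 164 departing genes differed from WT by at least 2-fold in Zfp871-/- alone, out of 294 such genes, and in 147 of them the double null lay within 2-fold of WT. Genes that differed in Trp53-/- alone were far more numerous, 1660 in all, but 289 of them departed (17.4%). Of the 10648 genes that differed in neither single null, 236 departed (2.22%). Only 38 genes were at least 2-fold apart from WT in opposite directions in the single nulls, and 20 of them departed.

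**Figure D1:**
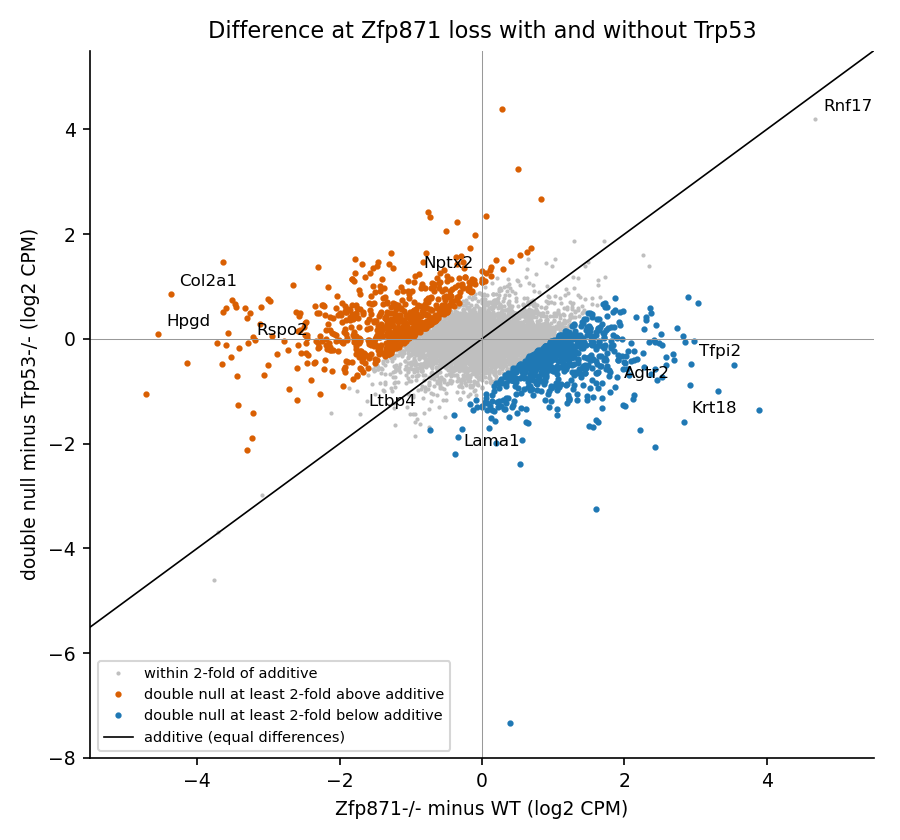
Each point is 1 of 13306 genes, with the difference of Zfp871-/- from WT on the horizontal axis and the difference of the double null from Trp53-/- on the vertical axis, both in log2 CPM. The diagonal is additivity, orange points (628 genes) lie at least 2-fold above it and blue points (670 genes) at least 2-fold below it. Most coloured points spread along the horizontal axis, where the Trp53-null pair differs little, while Lama1 and Nptx2 are examples set off vertically.

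The interaction alone names no library, because an additive fit leaves a residual of the same size in all 4. A library was therefore called apart where the other 3 lay within 2-fold of each other and it lay at least 2-fold from each of them. This held for 427 of the 13306 genes (3.21%), and the WT library was the one apart in 317 of them (2.38% of all genes). It was the highest in 163 (1.23%) and the lowest in 154 (1.16%). The other libraries were apart in fewer genes, Zfp871-/- in 61 (0.458%), Trp53-/- in 32 (0.24%) and the double null in 17 (0.128%). Among the 1298 departing genes, 357 had 1 library apart, which was the WT library for 274 (76.8%). It was Zfp871-/- for 45 (12.6%), Trp53-/- for 24 (6.72%) and the double null for 14 (3.92%). The other 941 departing genes (72.5%) fitted no such pattern.

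A softer measure, the library farthest from the median of the other 3, gave WT in 830 of the departing genes (63.9%), against 44.0% of all genes. It gave Zfp871-/- for 223 (17.2%, against 24.8% of all genes) and Trp53-/- for 162 (12.5%, against 14.6%). The double null was farthest in 83 (6.39%, against 16.7%). Among departures of at least 4-fold WT was the farthest in 226 of 282 (80.1%). The same WT library enters both single-null differences and the prediction, and whether its culture rather than its genotype sets it apart was not tested.

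**Figure D2:**
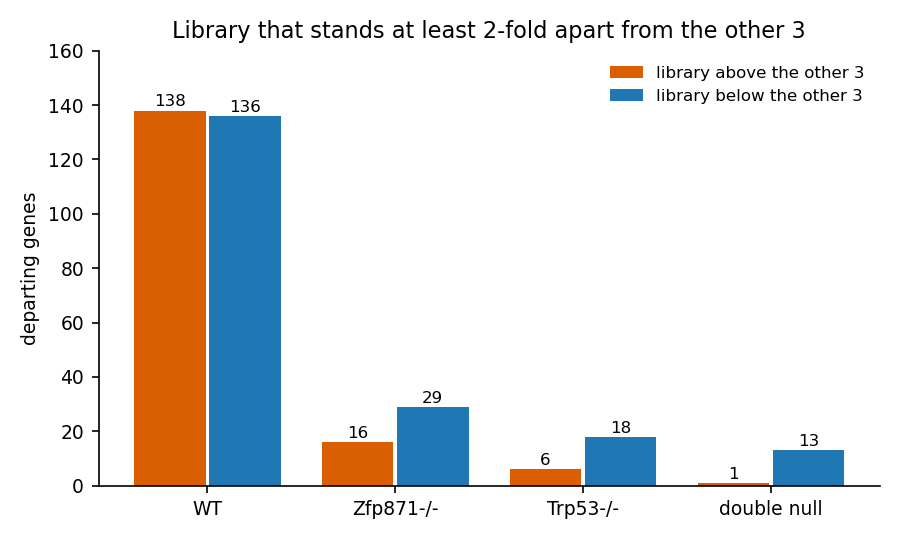
Bars count departing genes in which 1 library lies at least 2-fold above (orange) or below (blue) the other 3, for each of the 4 libraries. WT accounts for 138 and 136 genes, Zfp871-/- for 16 and 29, Trp53-/- for 6 and 18, and the double null for 1 and 13.

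Transcription factors of limb, face and skeletal patterning departed in both directions, more often above the prediction than below. Of 45 transcription factors of body position outside the Hox clusters that passed the limit on low values, 19 lay above and 7 below the prediction, with a median interaction of 0.59. WT stood alone above the other libraries in 5 of the 45. Lhx2, a LIM homeodomain factor of the limb bud and forebrain, had 22.3 CPM in WT and 1.17, 0.869 and 0.602 CPM in the null libraries. Its interaction was 3.68 (95% counting interval 2.42 to 4.996), and the 3 null libraries lay close together. Msx2, Tfap2b and Six2, homeodomain and AP-2 factors of skull, limb and kidney mesenchyme, had interactions of 2.90, 2.86 and 2.46. Their levels were lowest in Trp53-/-, where Tfap2b had 7 counts against 301 in WT, 107 in Zfp871-/- and 23 in the double null. On the other side of the prediction, Tbx1, a T-box factor chosen after its values were seen, was lowest in WT, with 20, 53, 83 and 87 counts.

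Several cartilage genes had large positive interactions. Of the 24 cartilage markers 13 passed the limit on low values, 7 of these lay above the prediction and Matn4 lay below, with a median of 1.01. The limit asks for 2 libraries and so drops markers counted in WT alone, and the median was 2.38 without it and 2.416 with a limit on the average over the 4 libraries. Summed over these 13, their levels were 1890, 710, 193 and 264 CPM, so the list was highest in WT and next highest in Zfp871-/-. Col2a1, the main collagen of cartilage, had the most positive interaction of the genes named, 5.23 (4.56 to 6.05), with a predicted difference of -13.33 and an observed difference of -8.10 between the double null and WT. Acan, the large proteoglycan of cartilage, had 101.6, 8.81, 4.58 and 7.75 CPM, and here WT alone stood apart, with an interaction of 4.26 (3.85 to 4.72). Col10a1, the collagen of hypertrophic chondrocytes, had 257.6, 9.71, 0.732 and 0.301 CPM, and Sox6, a partner of Sox9 in cartilage, had 551, 49, 6 and 3 counts. The interval of Sox6 reached from -0.28 to 4.67, because few counts were left in the Trp53-null libraries. Of the markers below the limit, Hapln1 had 404, 16, 2 and 0 counts, Col9a1 had 74, 3, 0 and 0 counts and Comp 95, 7, 8 and 3 counts. The share of chondrocyte-like cells in each culture was not measured, and its part in these departures was not tested.

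Tendon and joint genes followed in part. Scx, the transcription factor of tendon progenitors, had 22.5, 3.71, 1.46 and 2.02 CPM and an interaction of 3.01 (2.27 to 3.86). Prg4, the lubricin of joint surfaces, had 70.3, 12.3, 1.46 and 1.72 CPM and an interaction of 2.72 (2.01 to 3.49). Both were highest in WT by a wide margin. Of 12 tendon and joint genes 3 lay above the prediction and 2 below, with a median of 0.70.

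Secreted signals of the same tissues also set WT apart. Among 28 genes of Wnt signalling 9 lay above the prediction and 2 below, and in 8 of the 9 WT stood alone above the other 3 libraries. Rspo2 and Rspo3 encode R-spondins, secreted proteins that amplify Wnt signals by sparing Frizzled receptors from removal. Rspo2 (chromosome 15, 43020794 to 43170826) had 53.3 CPM in WT and 5.36, 4.16 and 3.92 CPM in the null libraries, an interaction of 3.20 (2.69 to 3.76). Rspo3 had 33.0, 5.57, 6.95 and 5.72 CPM, an interaction of 2.27 (1.82 to 2.75). In both genes the 3 null libraries were nearly level. Tcf7, a transcription factor of the pathway, had 157, 30, 22 and 34 counts. The other 5 genes of the 8 were Fzd8, a receptor, Sfrp2, a secreted modulator, Rspo1, the ligand Wnt5b and Axin2, a feedback inhibitor and common readout of the pathway, all chosen after their values were seen. Axin2 had 9.54, 3.40, 3.11 and 2.67 CPM. The median over the whole Wnt list was -0.11, so most of its members did not share this pattern.

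Bmp4, a bone morphogenetic protein of limb and face mesenchyme, had 122.0, 10.5, 4.12 and 3.23 CPM and an interaction of 3.18 (2.67 to 3.69). Tgfb2, a transforming growth factor, had 112.0, 43.3, 30.2 and 40.0 CPM, and WT alone stood above the rest. Of the 27 genes of this family of signals 3 lay above and 3 below, against 4.72% and 5.04% of all genes, with a median of -0.21. Among 26 growth factor genes 4 lay above and 2 below, against the same shares. Igfbp2 and Igfbp4, which bind insulin-like growth factors, were graded over the libraries, Igfbp2 at 669.3, 204.8, 56.0 and 101.9 CPM and Igfbp4 at 406.3, 161.3, 26.7 and 42.9 CPM. Their interactions were 2.57 and 2.02, and in each the double null lay between the single nulls.

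**Figure D3:**
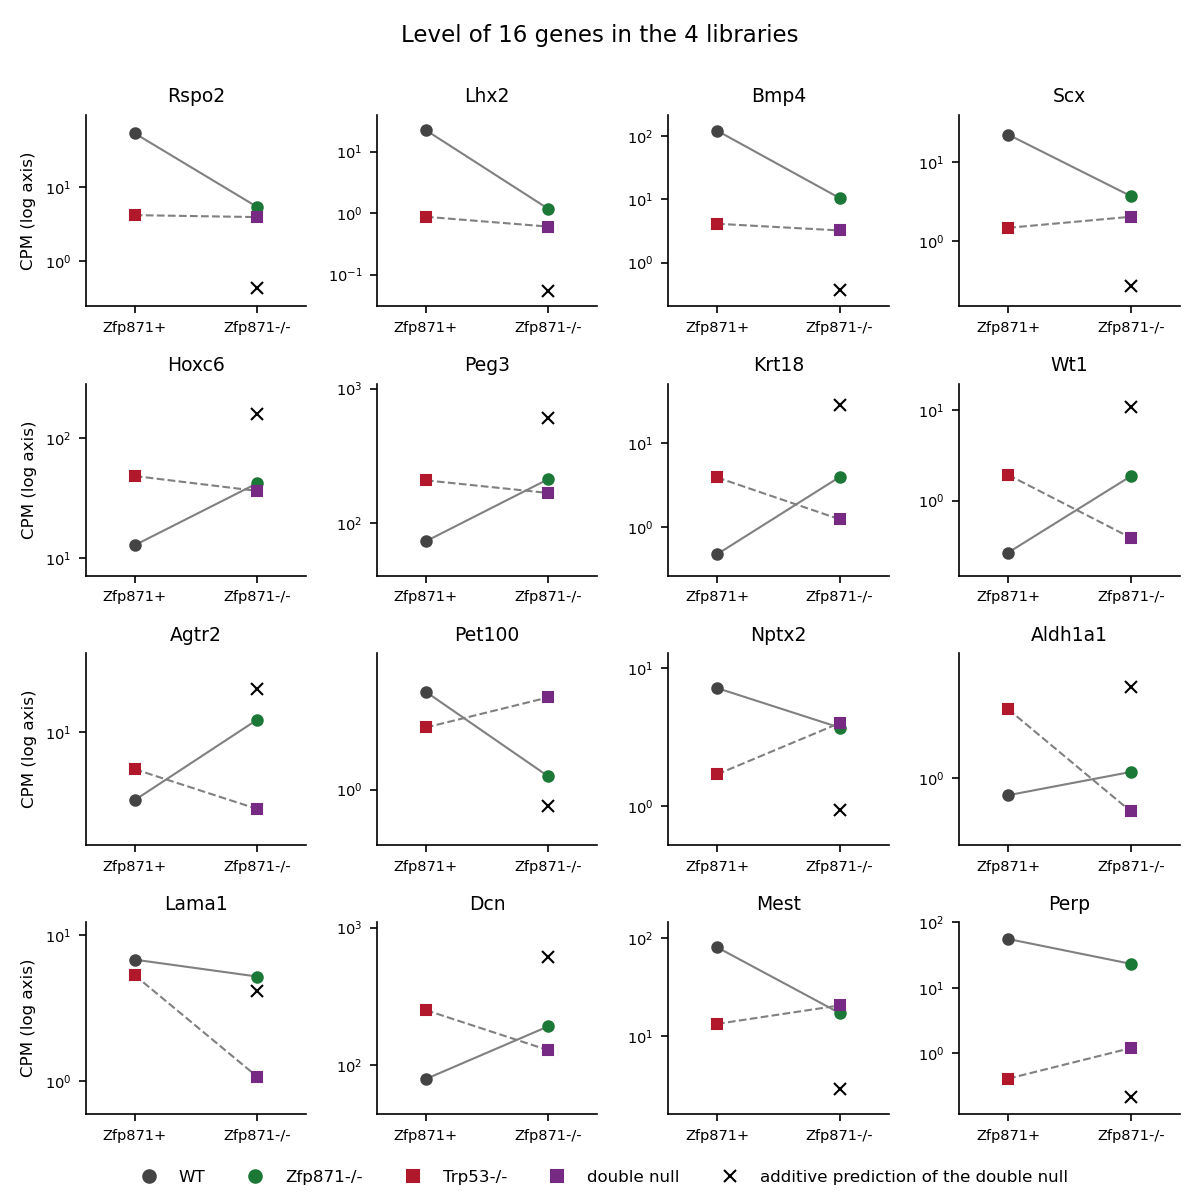
Each panel gives the CPM of 1 gene on a log axis, with Zfp871-intact libraries at the left and Zfp871-null libraries at the right. Circles are WT and Zfp871-/-, squares are Trp53-/- and the double null, and the cross is the additive prediction of the double null. Rspo2, Lhx2, Bmp4, Scx and Mest are highest in WT, Krt18 and Wt1 are high in both single nulls, and Agtr2, Pet100, Nptx2, Aldh1a1 and Lama1 have a level in 1 null library that the other libraries do not share.

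Hox genes departed in opposite directions according to cluster and position. Hox proteins are homeodomain factors whose clusters are read in order along the body, low paralogue numbers toward the head and high numbers toward the tail and the limb tip. Of 31 Hox genes that passed the limit, 6 lay above the prediction and 17 below, against 4.72% and 5.04% of all genes. Their median was -1.12. All 8 Hoxb genes and 7 of 8 Hoxc genes lay below, with medians of -1.48 and -1.78. In the Hoxd cluster 3 of 5 lay above, with a median of 2.51, and in Hoxa 3 of 10 lay above and 2 below. By position, 15 of 23 genes of paralogues 1 to 9 lay below and 1 above, while 5 of 8 genes of paralogues 10 to 13 lay above and 2 below. The limit shapes these counts, because it drops genes counted mainly in WT. Dropped were Hoxa13, with 226, 15, 9 and 3 counts, and Hoxd12, with 140, 13, 0 and 0 counts. Other Hox genes dropped had at most 25 counts in any library. The list median was -0.977 without the limit and -1.006 with a limit on the average.

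In all 8 Hoxb genes and in every Hoxc gene except Hoxc13 the WT library was the lowest. Hoxb9 had 428, 973, 1527 and 1347 counts, an interaction of -1.45 (-1.66 to -1.26). Hoxc6 had 241, 795, 1059 and 845 counts, an interaction of -2.13 (-2.39 to -1.89). In both, the 3 null libraries lay within 2-fold of each other in CPM and WT lay below them, a pattern met by 11 of the 31 genes. In the posterior Hoxd genes the order was WT, then Zfp871-/-, then both Trp53-null libraries. Hoxd13, a factor of digits and the genital region, had 1904, 142, 14 and 14 counts and an interaction of 3.65 (2.44 to 4.86). Hoxa11, a factor of the forearm and lower leg, had 254, 63, 100 and 147 counts, and WT alone stood above the others. Neighbouring Hox genes share regulatory regions and overlap with antisense RNAs, so the members of a cluster are not separate observations and single values are uncertain.

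**Figure D4:**
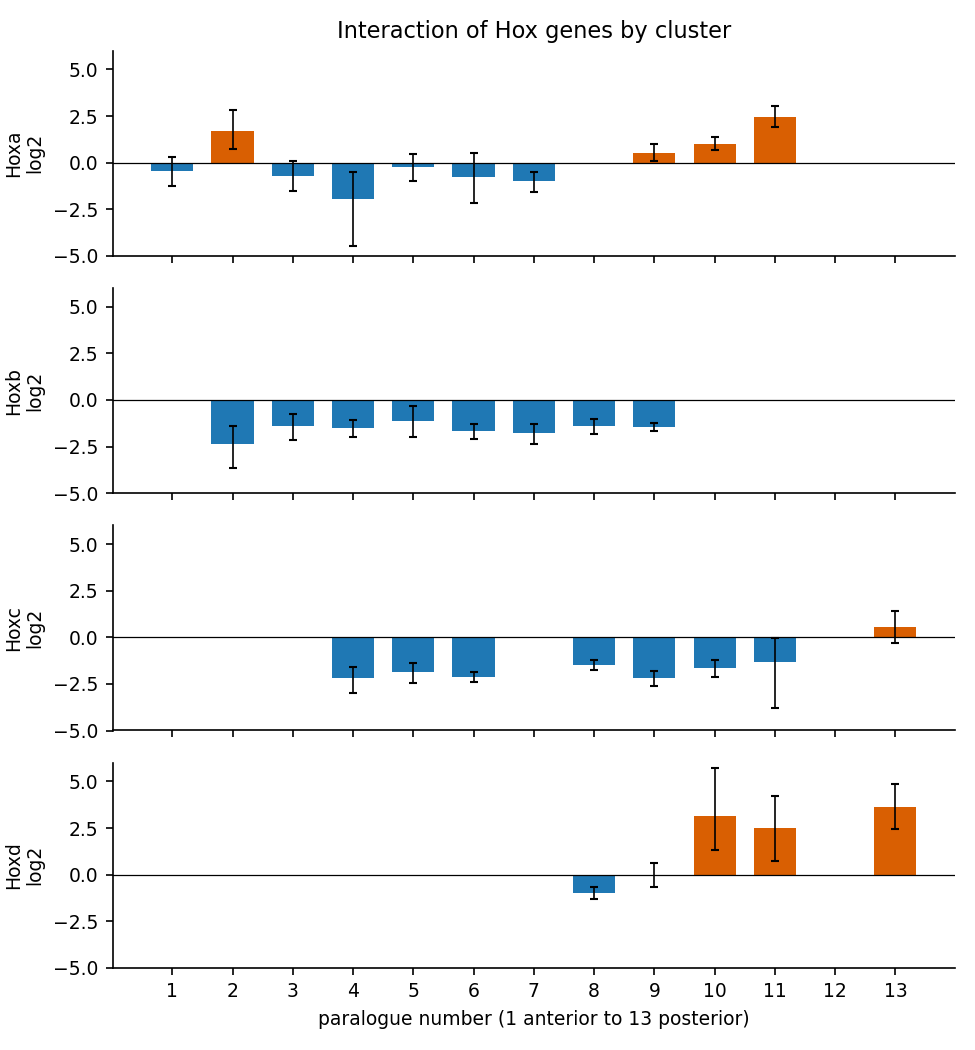
Bars give the interaction (log2) of each Hox gene that passed the limit, by cluster (rows) and paralogue number (horizontal axis), and whiskers give the exact 95% counting interval. All Hoxb bars and all Hoxc bars except Hoxc13 lie below 0, and Hoxd10, Hoxd11, Hoxd13, Hoxa10 and Hoxa11 lie above 0.

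Some genes of mesothelium and simple epithelium lay far below the prediction, and in these no single library was apart. Mesothelium is the sheet of cells that lines the body cavities, and it expresses keratins together with Wt1. Only 8 of 24 markers passed the limit. A marker low in WT and the double null passes only if both single nulls are high, which by itself gives a negative interaction, so the 7 of 8 below the prediction and their median of -3.76 are no result about the list. Without the limit the median was -1.43. Krt18, a keratin of simple epithelia, had 9, 75, 86 and 29 counts and an interaction of -4.41 (-6.05 to -3.48). Wt1, a transcription factor of mesothelium and kidney, had 5, 35, 42 and 9 counts and an interaction of -4.49 (-7.12 to -3.25). Krt8, the partner of Krt18, had 1, 40, 25 and 9 counts, and Lrrn4, a mesothelial surface protein, had 3, 46, 36 and 18 counts. In these 4 genes both single nulls were above the double null, and the double null was above WT. The 8 genes summed to 14, 44.3, 26.9 and 19.9 CPM, 4 to 6 of the 24 markers were at 0 in each library, and these low counts leave wide intervals. How many mesothelial cells each culture held was not measured, and their part in these values was not tested.

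The same shape, with both single nulls above WT and the double null returning toward WT, was seen in more abundant genes. Dcn, the collagen-binding proteoglycan decorin, had 79.7, 192.3, 251.7 and 128.8 CPM and an interaction of -2.24 (-2.35 to -2.13). Angpt2, a ligand of the endothelial Tie2 receptor, had 5.93, 13.9, 16.5 and 7.32 CPM and an interaction of -2.38 (-2.83 to -1.98). In both genes the double null lay between WT and the single nulls, where the prediction placed it above both. Col14a1, a collagen of dense connective tissue, was highest in Zfp871-/-, at 11.97, 31.08, 16.74 and 10.63 CPM. Of the 32 fibroblast matrix genes 5 lay below and 1 above, with a median of -0.06. The 1 above was Eln, which encodes elastin, at 630.7, 147.1, 25.03 and 21.69 CPM with an interaction of 1.89 (1.71 to 2.08).

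Another group of negative interactions came from genes lowest in WT and high in all null libraries. Tfpi2, a secreted inhibitor of serine proteases, had 1.96, 15.7, 21.5 and 15.4 CPM and an interaction of -3.42 (-4.05 to -2.94). Mmp9, a matrix metalloprotease that macrophages also make, had 2.07, 15.4, 86.6 and 83.5 CPM and an interaction of -2.90 (-3.48 to -2.46). Tfpi2 was level over the 3 null libraries, whereas Mmp9 was higher in both Trp53-null libraries, as the macrophage genes were. Flt1 and Ecscr, which endothelial cells express, were lowest in WT too, Flt1 at 47.1, 119.4, 179.9 and 114.5 CPM. Of the 9 endothelial genes that passed the limit 3 lay below and 1 above, the latter being Erg, an endothelial and cartilage transcription factor with 406, 31, 0 and 4 counts. With its count of 0 raised to 3 the interaction of Erg was 4.04.

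Of the 29 genes of Hedgehog, Notch and FGF signalling 8 lay below the prediction and 1 above, with a median of -0.07 and 12 positive values. Sprouty proteins dampen the signal that passes from FGF receptors to the MAP kinases. Spry1 had 27.4, 60.7, 74.9 and 61.9 CPM and an interaction of -1.42 (-1.61 to -1.24). Spry2, Spry4, the receptor Fgfr1, the ligand Fgf2 and the target gene Etv4, all chosen after their values were seen, had interactions between -1.23 and -1.01. WT stood alone below the other libraries in 3 of the 29. The 1 above the prediction was Hhip, a membrane protein that binds Hedgehog ligands and is itself a target of the pathway, at 9.54, 3.66, 1.14 and 2.07 CPM.

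Imprinted genes, which are read from the maternal or the paternal chromosome only, held departures of both signs. Of 30 members 3 lay above and 8 below, with a median of -0.24. Mest, read from the paternal copy, had 80.3, 17.1, 13.3 and 20.5 CPM and an interaction of 2.84 (2.58 to 3.13). Peg3, also paternal, had 73.6, 213, 208 and 168 CPM and an interaction of -1.84. Mest was high and Peg3 low in WT alone, while the 3 null libraries were close together in each gene. Zdbf2, another paternally expressed gene, was instead lowest in the double null and highest in Trp53-/-, at 10.0, 13.1, 18.8 and 6.63 CPM. Counts per gene do not show which parental copy was read.

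Targets of p53 departed at a share near that of all genes. Of 30 targets that passed the limit 2 lay above the prediction and none below, against 4.72% and 5.04% of all genes, with a median of 0.21. Cdkn1a, the inhibitor of cyclin-dependent kinases, had an interaction of 0.0033 (-0.22 to 0.23), with 740.5 and 695.0 CPM in the Trp53-intact libraries and 15.6 and 14.7 CPM in the Trp53-null ones. Mdm2 had 311.2, 413.0, 63.9 and 65.5 CPM and an interaction of -0.37 (-0.49 to -0.26). Its interaction was smaller than 2-fold, and it came from a higher level in Zfp871-/- than in WT that had no counterpart between the Trp53-null libraries. Perp, a membrane protein of p53-driven cell death, and Dcxr, a carbonyl reductase, were the targets above the prediction. Perp had 55.7, 23.3, 0.412 and 1.21 CPM and an interaction of 2.61 (1.67 to 4.09), the double null resting on 28 counts and Trp53-/- on 9. Dcxr had 40.1, 22.0, 2.52 and 3.44 CPM and an interaction of 1.30 (0.77 to 1.87). In both, the level was lower in Zfp871-/- than in WT while the double null lay above Trp53-/-. For Perp the step from 0.412 to 1.21 CPM between the Trp53-null libraries is a large part of the interaction and rests on these low counts.

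Genes of cell division shifted together but by less than 2-fold. Of 30 genes of mitosis 29 had a negative interaction, with a median of -0.46, and 1, the chromosome motor Kif4, passed 2-fold at -1.09 (-1.28 to -0.90). Of 30 genes of DNA replication 26 were negative, with a median of -0.40, and 1, Pola1 of the primase complex, passed 2-fold at -1.12 (-1.33 to -0.92). Over all genes the median was 0.0013. Median differences from WT in the mitosis list were 0.58 for Zfp871-/-, 1.13 for Trp53-/- and 1.27 for the double null, so the double null was level with Trp53-/- rather than with the sum. Kif4 itself had 26.7, 49.5, 77.4 and 67.4 CPM, and Cdc6, which loads the replicative helicase, had 7.89, 13.8, 41.0 and 44.2 CPM. Cdc6 and Mcm10 each had an interaction between -1 and 0.

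Cholesterol synthesis genes gave a similar count with a different order of libraries. Of 24 genes 23 had a negative interaction and 3 lay below the prediction, with a median of -0.57. Insig1, the sterol-sensing brake on the SREBP transcription factors, had 51.9, 82.4, 118.2 and 84.3 CPM and an interaction of -1.16 (-1.30 to -1.01). Fdps, an enzyme of the pathway whose reads are uncertain because near-identical copies exist, had an interaction of -1.07. Insig1 was highest in Trp53-/-, with the double null level with Zfp871-/-.

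Interferon-stimulated genes lay below the prediction in 9 of 30 cases and above it in 1, with a median of -0.53 and 28 of 30 values negative. These genes encode antiviral proteins that STAT and IRF factors switch on through the interferon-stimulated response element (ISRE). Oas3, which makes the second messenger that activates RNase L, had 3, 18, 232 and 164 counts and an interaction of -2.62 (-5.60 to -1.36). Gbp3, a guanylate-binding protein, had 4.40, 7.48, 60.3 and 33.7 CPM and an interaction of -1.59 (-2.03 to -1.18). Oas2, a relative of Oas3, had 10, 17, 282 and 151 counts. All of these were highest in Trp53-/-, next in the double null and lowest in WT. The 1 gene above was Cmpk2, a mitochondrial nucleotide kinase, with 34, 10, 176 and 184 counts and lowest in Zfp871-/-. The OAS and GBP genes belong to families of similar sequence, and reads shared between copies make single members uncertain.

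The ISRE was searched as GAAANNGAA on both strands in RefSeq promoters (GRCm38.p6, 250 bases before to 50 after the gene start). A match was present in 15 of the 23 interferon-stimulated genes with a promoter in the table (65.2%) and in 8.58% of the 10067 genes of the set with one. The windows are shown for the 5 members below the prediction whose match lay before the gene start, as examples of the element that gives the group its name. Of the other 4 members below the prediction, Oasl1 and Oasl2 had no match and Oas2 and Dhx58 had no promoter in the table. A match before the start was also present in 8 members that did not depart. Capitals mark the match, which reads as its reverse complement where it lies on the opposite strand. The windows lie at chr5:120777701-120777759 (minus strand) for Oas3, chr3:142559975-142560033 (plus) for Gbp3, chr5:120907526-120907570 (minus) for Oas1a, chr2:62646334-62646392 (minus) for Ifih1 and chr3:142530259-142530317 (plus) for Gbp7. Ifih1 encodes the RNA sensor MDA5.
Oas3: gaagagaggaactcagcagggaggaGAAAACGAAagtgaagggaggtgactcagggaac
Gbp3: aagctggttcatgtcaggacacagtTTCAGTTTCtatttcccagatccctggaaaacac
Oas1a: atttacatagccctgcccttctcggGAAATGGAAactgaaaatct
Ifih1: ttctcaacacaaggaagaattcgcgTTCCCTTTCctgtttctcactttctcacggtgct
Gbp7: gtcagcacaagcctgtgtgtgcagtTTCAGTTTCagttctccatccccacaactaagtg
A match is a stretch of letters, not a measured binding site. Of 25 mitosis promoters 18 held the cell-cycle element TTTGAA (72.0%, against 14.2% of all), and of 25 replication promoters 9 held an E2F motif, TTTGGCGC or TTTCCCGC (36.0%, against 3.44%). Among 16 cholesterol promoters 1 held the sterol element TCACNCCAC (6.25%, against 1.44%). The full p53 site was found in 0 of 23 p53-target promoters and in 0.00993% of all, in this short window only.

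Macrophage genes had the same order of libraries as the interferon genes, with fewer departures. Of 24 markers 3 lay below the prediction and none above, against 5.04% and 4.72% of all genes. Their median was -0.53, with 19 negative values. Spi1, the myeloid transcription factor PU.1, had 13, 25, 405 and 329 counts and an interaction of -1.24 (-2.45 to -0.28). Ms4a7 had 13, 29, 565 and 523 counts, and Mrc1, the mannose receptor of tissue macrophages, had 28, 58, 551 and 575 counts. In all 3 Zfp871-/- lay above WT, and the Trp53-null libraries lay far above both and close to each other. The interferon list, summed over its 30 genes, stood at 455, 511, 1780 and 1390 CPM, in the same order of libraries as the macrophage sum. The part of macrophage RNA in the interferon and cytokine values was not tested.

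Inflammatory mediators split by which library was low. Of 21 cytokine genes 4 lay above and 4 below the prediction. Cxcl1 and Cxcl5, which attract neutrophils, were highest in WT, Cxcl1 at 26.8, 3.02, 4.85 and 7.44 CPM and Cxcl5 at 78.71, 19.04, 10.34 and 18.37 CPM. Ccl5, a chemokine for T cells, was low in Zfp871-/- alone, at 10.9, 1.91, 23.7 and 17.2 CPM, so its single-null differences had opposite signs and its interaction was 1.9996 (1.499 to 2.642). Il33, an alarmin, was lowest in WT, with 11, 46, 51 and 32 counts.

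Departures in which Zfp871-/- was the library apart were smaller in number. Agtr2, the type 2 angiotensin receptor of embryonic mesenchyme, had 3.28, 12.3, 5.44 and 2.84 CPM and an interaction of -2.79 (-3.46 to -2.22). Aldh1a2, which makes retinoic acid, had 14, 74, 31 and 27 counts, and Pde8b, a cyclic AMP phosphodiesterase, had 21.0, 50.5, 20.4 and 14.5 CPM. In each of these Zfp871-/- was high and the double null lay within 2-fold of WT. Has1, a hyaluronan synthase, followed them with 43, 102, 53 and 39 counts. Inhba, which encodes the activin subunit and was chosen after its values were seen, was the most abundant of this kind that is described here, at 660.9, 1390, 607.6 and 593.2 CPM.

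Low levels in Zfp871-/- alone were found for Pet100, an assembly factor of cytochrome c oxidase, with 83, 23, 56 and 94 counts and an interaction of 2.41 (1.64 to 3.40). Slc25a27, a mitochondrial carrier, had 62, 16, 49 and 61 counts, and Dand5, a secreted antagonist of Nodal and BMPs, had 59, 18, 47 and 63 counts. In these 3 genes the double null lay close to WT, so the low level of Zfp871-/- was not met where Trp53 was lost too. Evi2a, which lies inside an intron of Nf1 and whose reads are uncertain without a stated strand, had 103, 30, 161 and 170 counts.

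Trp53-/- was the library apart mostly by being low. Nptx2, a secreted pentraxin, had 136, 70, 37 and 93 counts and an interaction of 2.13 (1.47 to 2.93). Tex15, best known from meiosis, had 155, 120, 29 and 96 counts, and Fabp3, a fatty acid carrier, had 276, 178, 97 and 234 counts. In each of the 3 the double null lay nearer to Zfp871-/- than to Trp53-/-. Aldh1a1, another enzyme of retinoic acid synthesis, was the largest case of the opposite kind, with 14, 21, 73 and 13 counts and an interaction of -2.92 (-4.60 to -1.74). Slc22a4, an organic cation carrier, had 23, 26, 89 and 35 counts.

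A level particular in size to the double null was rare and, with 1 exception among 14 departing genes, was a low one. Lama1, the laminin chain of embryonic basement membranes, had 128, 98, 116 and 25 counts and an interaction of -1.83 (-2.71 to -1.16). Unc5a, a netrin receptor, had 39, 53, 40 and 16 counts, and Matn4, a matrilin of cartilage and other matrix, had 53, 55, 54 and 25 counts. The counting interval of Matn4 came close to 0 (-2.20 to -0.32). The predicted gene Gm47283, annotated on the Y chromosome, had 154, 202, 337 and 0 counts and is uncertain, since other genes of that chromosome were at or near 0 in all libraries. With its count of 0 raised to 3 its interaction was -7.29. Slc7a11, the cystine carrier, was also lowest in the double null, at 12.3, 15.4, 17.2 and 6.71 CPM with an interaction of -1.66 (-2.06 to -1.30), although it did not meet the rule for a library apart.

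The other genes with the most extreme interactions belonged to several functions. On the positive side, Hpgd, which breaks down prostaglandins, had 17.1, 0.637, 2.06 and 2.19 CPM and an interaction of 4.64 (3.77 to 5.97). Ndnf, a secreted neurotrophic factor, had 52.8, 4.30, 1.14 and 1.76 CPM, and Abi3bp, a matrix protein, had 104.6, 10.3, 3.16 and 4.82 CPM. Reln, the secreted guide of migrating neurons, had 281, 24, 3 and 6 counts, and Penk, the precursor of enkephalins, had 1679, 174, 49 and 74 counts. In all of these WT was far above the rest, and in all but Hpgd both Trp53-null libraries were also below Zfp871-/-. Itih2, Smoc1 and the platelet chemokine gene Ppbp completed the positive end, with interactions between 3.77 and 4.14. Where both single nulls are far below WT, as for Reln and Col10a1, the additive prediction can fall below what a library can count. A few reads in the double null then place it above the prediction.

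On the negative side, WT held few counts in nearly every gene. Rgs7bp, an anchor of RGS proteins, had 3, 54, 140 and 105 counts and an interaction of -4.03 (-7.02 to -2.98). P2rx3, an ATP-gated channel of sensory neurons, had 8, 44, 200 and 62 counts, and Adrb1, the beta-1 adrenergic receptor, had 2, 27, 76 and 43 counts. Trp53-/- was the highest library in these 3. Spn and Cd244a, surface proteins of leukocytes, had 3, 26, 59 and 37 and 4, 30, 87 and 53 counts in the order given above, and the macrophage genes were likewise higher in the Trp53-null libraries. Gvin1 and Ifi209, interferon-inducible genes from families of near-identical copies, had interactions of -3.29 and -3.26 and are uncertain. Myrf, a membrane-bound transcription factor of glia and mesothelium, differed from these in being highest in Zfp871-/-, with 46, 186, 112 and 48 counts, WT and the double null being level.

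Single nulls that differed from WT in opposite directions were rare, and 20 of 38 such genes departed (52.6%, against 9.75% of all genes). The class is picked on differences that enter the interaction, so a share above that of all genes is built in. Of the genes lower in both single nulls 86.2% departed, and of those higher in both 91.0%. Ngfr, the neurotrophin receptor p75 of neural crest and other mesenchyme, had 5.67, 16.8, 1.19 and 0.301 CPM and an interaction of -3.25 (-5.03 to -2.25). Its double null was the lowest library, with 7 counts, although Zfp871-/- was the highest. Of 11 neural crest and glia genes 2 lay below and 1, the tubulin-binding Stmn2, above.

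Lists of other cell types and responses held departures on both sides of the prediction. The bone, fat cell, skeletal muscle and immediate early lists departed more often than the 9.75% of all genes, but with few members each. Of 11 bone genes 2 lay above the prediction, Bmp4 and Dlx5, and 1 below, with a median of 0.30. Of 8 fat cell genes 1 lay above and 2 below. The master regulator Pparg was highest in WT, at 17.96, 6.26, 6.13 and 4.43 CPM, while Lpl, a lipase that macrophages also make, was highest in Trp53-/-, at 21.9, 52.1, 199.0 and 154.0 CPM. Their interactions were 1.05 and -1.61. Of 7 skeletal muscle genes 3 lay above and 1 below. Of 18 immediate early genes 1 lay above and 2 below, the latter being the zinc finger factors Nr4a1 and Egr2, which were lowest in WT. Among 19 antioxidant genes 1 lay on each side, and among 22 fatty acid genes Pparg and Lpl did, shares near the 4.72% above and 5.04% below of all genes.

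No departure was met in 4 of the 34 lists with at least 6 measured members. None of 23 glycolysis genes, 49 ribosomal protein genes, 12 mitochondrial mRNAs or 11 heat shock genes departed, with medians of -0.22, 0.17, 0.07 and -0.11. Of all genes 9.75% departed, but of those with a mean of at least 100 CPM 3.17% did, so a count of 0 in lists this short is near the background. Within the ribosomal list 40 of 49 values were positive, and Rps28 was nearest the limit, at 87.9, 55.1, 69.0 and 84.8 CPM with an interaction of 0.97. Among stress genes of the ATF4 pathway 1 of 22 departed, Slc7a11, and among contractile genes 1 of 19, Myh11 at 1.46 (1.142 to 1.797). Of 20 zinc finger genes of the chromosome 17 cluster that holds Zfp871, 1 departed.

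**Figure D5:**
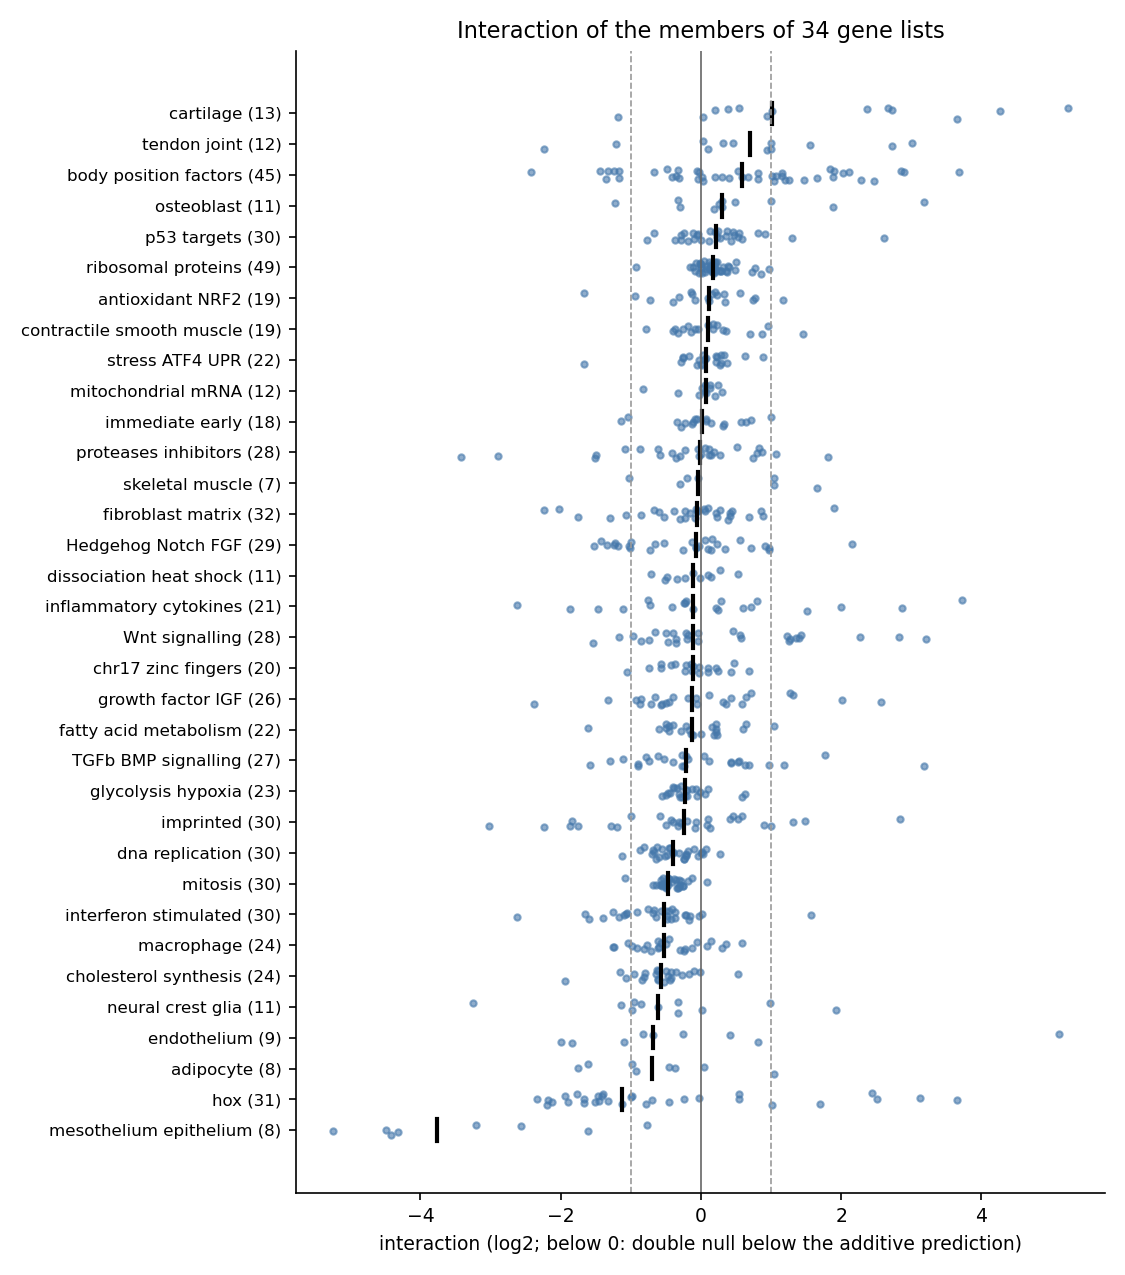
Each row is 1 of 34 gene lists with at least 6 members past the limit on low values, each point a member's interaction (log2), each black bar the list's median and the dashed lines 2-fold in either direction. The mesothelium and Hox lists lie farthest to the left, at medians of -3.76 and -1.12, and the cartilage list farthest to the right, at 1.01.

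Departures were more common among genes of low level. They made up 27.1% of the 1879 genes with a mean CPM under 3 and 16.8% of the 2109 genes from 3 to 10. From 30 to 100 CPM the share was 3.59%, and of the 2176 genes at 100 CPM or more 69 departed (3.17%). Thbs2, Tnc, Dcn, Eln, Igfbp2 and Peg3 were among the abundant genes that did, of which Thbs2 and Tnc were named after their values were seen. Tnc, the matrix glycoprotein tenascin C, had 3819, 7510, 5260 and 4475 CPM, an interaction of -1.21 (-1.23 to -1.19). Within 5 Mb of Zfp871 12 of 178 genes departed (6.74%), and within 5 Mb of Trp53 13 of 110 did (11.8%), against 9.75% of all genes. By chromosome the share ran from 6.67% on chromosome 16 to 12.9% on chromosome 1.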

How the data were processed

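RNA sequencing of 4 MEF libraries, 1 per genotype, was analysed from the raw count per Ensembl gene that the authors deposited. Per the submitters' processing notes, fastp, STAR and featureCounts were used with mm10. Their versions, the strand setting and the annotation used are not stated there, so antisense, overlapping and near-identical genes are uncertain. The normalized tables deposited per library were not used.

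Symbols, gene types and coordinates came from GENCODE M21, which held 54495 of the 54532 IDs; the rest took at most 0.0053% of a library's counts. TMM factors from edgeR 4.0.16 in R 4.3.3 were 0.978 for WT, 0.9438 for Zfp871-/-, 1.0406 for Trp53-/- and 1.041 for the double null. Genes with a CPM of at least 1 in at least 2 libraries were kept, 99.76% to 99.81% of counts. The interaction used a prior count of 2, and its 95% interval is the exact conditional interval of the odds ratio of the 4 counts. No p-value was computed, since no residual degree of freedom exists. The intervals were tested on simulated data with planted interactions.

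Genes named are the 12 most positive and 12 most negative protein-coding interactions with at least 50 counts in a library and an interval without 0, the 5 largest per library apart and direction, up to 4 per list, and Zfp871, Trp53, Mdm2 and Cdkn1a. Not every gene the rule allows is printed, and genes outside it are marked as chosen after their values were seen. The set of genes, the lists and the rule were chosen with earlier results of these data known. Alternatives covered the size factors (DESeq2 1.42.0 or total counts), the limit on low values, the prior count and the fold. They also covered the counting interval, protein-coding genes alone and a looser rule for a library apart. That rule asked for a gap of at least 2-fold that was larger than the range of the other 3. With it WT was apart in 441 genes, Zfp871-/- in 77, Trp53-/- in 46 and the double null in 24.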

Additional observations from a re-analysis of the deposited data

How the results depend on the processing

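The count of 1298 departing genes moved with the limit for low values and with the fold. Without a limit 5760 genes departed (2849 above and 2911 below), of which 1287 were among the 1298. WT was then apart in 1070 genes, Zfp871-/- in 740, Trp53-/- in 403 and the double null in 311. The departing classes without that limit were 1230 (both single nulls lower), 705 (both higher), 1361 (Zfp871-/- only) and 992 (Trp53-/- only). A prior count of 8 gave 1065 departing genes, 187 of them in the class of both single nulls higher, with Trp53-/- apart in 19 and the double null in 8. At 4-fold in place of 2-fold, 282 departed (163 above and 119 below). Median-of-ratios size factors kept 1286 of the 1298 genes and total counts 1239. Total counts moved the median of all genes to 0.053 and that of the ribosomal list to 0.222. For named genes, 1108 values under another setting stayed inside the counting interval and 6 moved outside it. No departing named gene changed sign, while the interaction of Cdkn1a, 0.0033, became -0.007 with median-of-ratios size factors. Among list medians, those of skeletal muscle (-0.041) and proteases (-0.014) became 0.303 and 0.010 without the limit and 0.010 and 0.038 with total counts, that of cartilage moved from 1.01 to 2.38 and that of mesothelium from -3.76 to -1.43. A limit on the average CPM left 1274 departing genes, and the counts not given here stayed within 1.5 times. No paired analysis was possible because each genotype has 1 library and no test was made, and for the same reason no library could be left out. Depth limits the low genes: intervals spanned several log2 units where a library had fewer than 10 counts.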

Other observations

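Among germ line genes, Rnf17 differed widely between libraries without departing by 2-fold. This gene, which acts in germ cell granules, had 10, 301, 14 and 311 counts in WT, Zfp871-/-, Trp53-/- and the double null. Its interaction was -0.49 (-1.88 to 0.77), so the difference at Zfp871 loss was large with and without Trp53. The interval reaches past 2-fold below the prediction, so additivity is not shown. Usp26, a deubiquitinase on the X chromosome, had 0, 153, 0 and 70 counts. Its interaction depends on the prior count and has no counting interval, because both libraries with intact Zfp871 were at 0. All 5 germ line genes past the limit on low values had a negative interaction, with a median of -0.49. Of these, Usp26 and Ddx4 lay at least 2-fold below the additive prediction, Ddx4 with 26, 39, 22 and 16 counts and an interval from -2.43 to 0.15.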
